A study of Nothobranchius furzeri with 9 samples.

Results

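Amino acid and glucose transporters were followed in skeletal muscle of the turquoise killifish Nothobranchius furzeri, a short-lived annual fish, at 3 ages. Members were all entries of the gene table whose name carries the SLC1, SLC2, SLC3, SLC6, SLC7, SLC38 or SLC43 family prefix, whatever their level. This gave 135 of 39396 entries, under 81 gene names. An entry is a row of the table with its own numeric identifier, which is printed after the gene name where a name has several entries, and entries with the same name were kept apart. The families held 23 entries in SLC1, 21 in SLC2, 4 in SLC3, 41 in SLC6, 23 in SLC7, 15 in SLC38 and 8 in SLC43. The name SLC7A6OS fits the prefix but belongs to the gene that lies opposite SLC7A6 and is not a transporter.

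Whole skeletal muscle was taken from 9 male fish of the wild-derived strain MZM-04/10, 3 per age, and each fish gave 1 RNA library. The fish were labelled as 5 weeks (young), 20 weeks (adult) and 35 weeks (old) and were fasted before sampling, and no further treatment or allele distinguished the groups. Total RNA was read by paired-end sequencing and the reads were counted per gene. The study used these libraries to ask how the muscle transcriptome changes with age, and here the 3 pairwise comparisons between the ages were made for the transporters.

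Solute carriers of these families move nutrients across the plasma membrane and across internal membranes. SLC2 members let glucose and related sugars pass down their gradient, and in muscle an insulin-responsive member is brought to the surface from vesicles. SLC38 members and several SLC1 and SLC6 members use the sodium gradient to load cells with glutamine, alanine and other amino acids, while SLC7 light chains, held at the surface by an SLC3 heavy chain, exchange these for branched-chain and other large amino acids, and SLC43 members pass such amino acids by facilitated diffusion. SLC6 also holds the carriers of creatine and taurine, which muscle takes up from the blood, and, together with SLC1, the carriers that clear transmitters around nerve cells.

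Values are given as normalized counts, which are the read numbers of a gene after division by 1 size factor per library and rounding, and the estimated number of reads on genes was 7.96 to 14.23 M per library. The members together held 0.152 to 0.35% of all normalized counts, depending on the library, and 89 to 109 of them were above 0 in each. No gene lengths were used, so levels are compared between libraries and not between genes. The skeletal muscle markers, of which 8 of 10 listed genes were found, summed to 380446 to 675558 per library, and 1 of their 12 tested entries was called in any comparison. The comparisons were made by limma on log2(value + 1), with all 9 libraries in 1 fit and Benjamini-Hochberg adjustment over the 17454 entries whose mean reached 5. To be called, an entry needed an adjusted p no higher than 0.05 together with a change of at least 1 on the log2 scale, up or down. An exact permutation test of 3 against 3 fish cannot give a two-sided p below 0.1, and the calls therefore rest on variances shared across entries.

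Of the 135 members, 68 reached the mean of 5 and were tested, and 67 did not. The untested members included 6 at 0 in all libraries, and the highest single value among them was 15. Just inside the limit were SLC6A17 entry 429130 with a mean of 5.0 and SLC7A11 with 5.78, and just outside it SLC1A8B with 4.78 and SLC6A13 entry 482148 with 4.33. In 6 tested members, among them SLC1A1 entry 272601, SLC6A11, SLC6A17 entry 429130 and SLC7A14 entry 884008, only the young fish had a mean of at least 5. Such an entry entered the test through the age at which it is high, so the fold changes of these entries against young fish are given as a description, without p. Those of them that passed the limits of a call are included in the counts below. SLC43 was tested in all 8 of its entries and SLC38 in 11 of 15, whereas only 5 of 23 SLC1 entries and 19 of 41 SLC6 entries were. SLC2 was tested in 8 of 21, SLC3 in 2 of 4 and SLC7 in 15 of 23 entries.

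Adult and young muscle differed in 24 of the 68 tested transporter entries. Higher in adults were 12 (17.6%, against 10.7% of all tested entries) and lower were 12 (17.6%, against 11.4% of all). The 3 adult values lay wholly above or below the 3 young ones in 37 members (54.4%), where the share over all tested entries was 50.2%. The median log2 fold change of the members was 0.115 and that of all tested entries -0.004, and single members reached from -4.85 to 2.59. In SLC1, 4 of 5 tested entries fell and in SLC6 4 of 19 fell while 2 rose, whereas in SLC2 3 of 8 rose and in SLC38 3 of 11 rose and 1 fell. SLC7 had 2 risers and 3 fallers among 15, and SLC3 and SLC43 had 1 riser each.

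Old and young muscle differed in 21 entries, 7 higher (10.3%, against 7.91% of all tested entries) and 14 lower (20.6%, against 9.84%). The groups did not overlap in 32 members (47.1%), against 42% of all tested entries. The lower entries were 7 of SLC6, 4 of SLC7 and 3 of SLC1, and the higher ones were 3 of SLC6, 2 of SLC38 and 1 each of SLC2 and SLC43. With every library scaled to the same total the old versus young calls were 5 higher and 19 lower, since that scaling moves the median of all entries to -0.30. Without young replicate 2 the count was 12, and adult versus young then had 18 calls.

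Old and adult muscle differed in 3 entries. SLC1A4 and SLC7A14 entry 386846 were higher in old muscle (2.94%, against 0.825% of all tested entries) and SLC7A8 was lower (1.47%, against 1.26%). The groups did not overlap in 16 members (23.5%), against 21% of all. The unadjusted limma p was under 0.05 in 17 members. Each of the 3 calls was lost without at least 1 library. Without young replicate 3, adult replicate 2 or adult replicate 3 limma gave 0 calls, with 15, 14 and 14 members at an unadjusted p under 0.05, and without young replicate 1, young replicate 2 or old replicate 2 it gave 1.

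The F test over the 3 ages in the same limma fit gave 34 members (50%) at an adjusted p of at most 0.05, against 35.4% of all tested entries, and 21 without young replicate 2. The 30 members called in at least 1 comparison had their highest mean in young muscle in 17 cases, in adults in 8 and in old fish in 5. The 2 comparisons against young muscle share the young libraries, so their values are given side by side below and are not independent of each other.

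**Figure D1:**
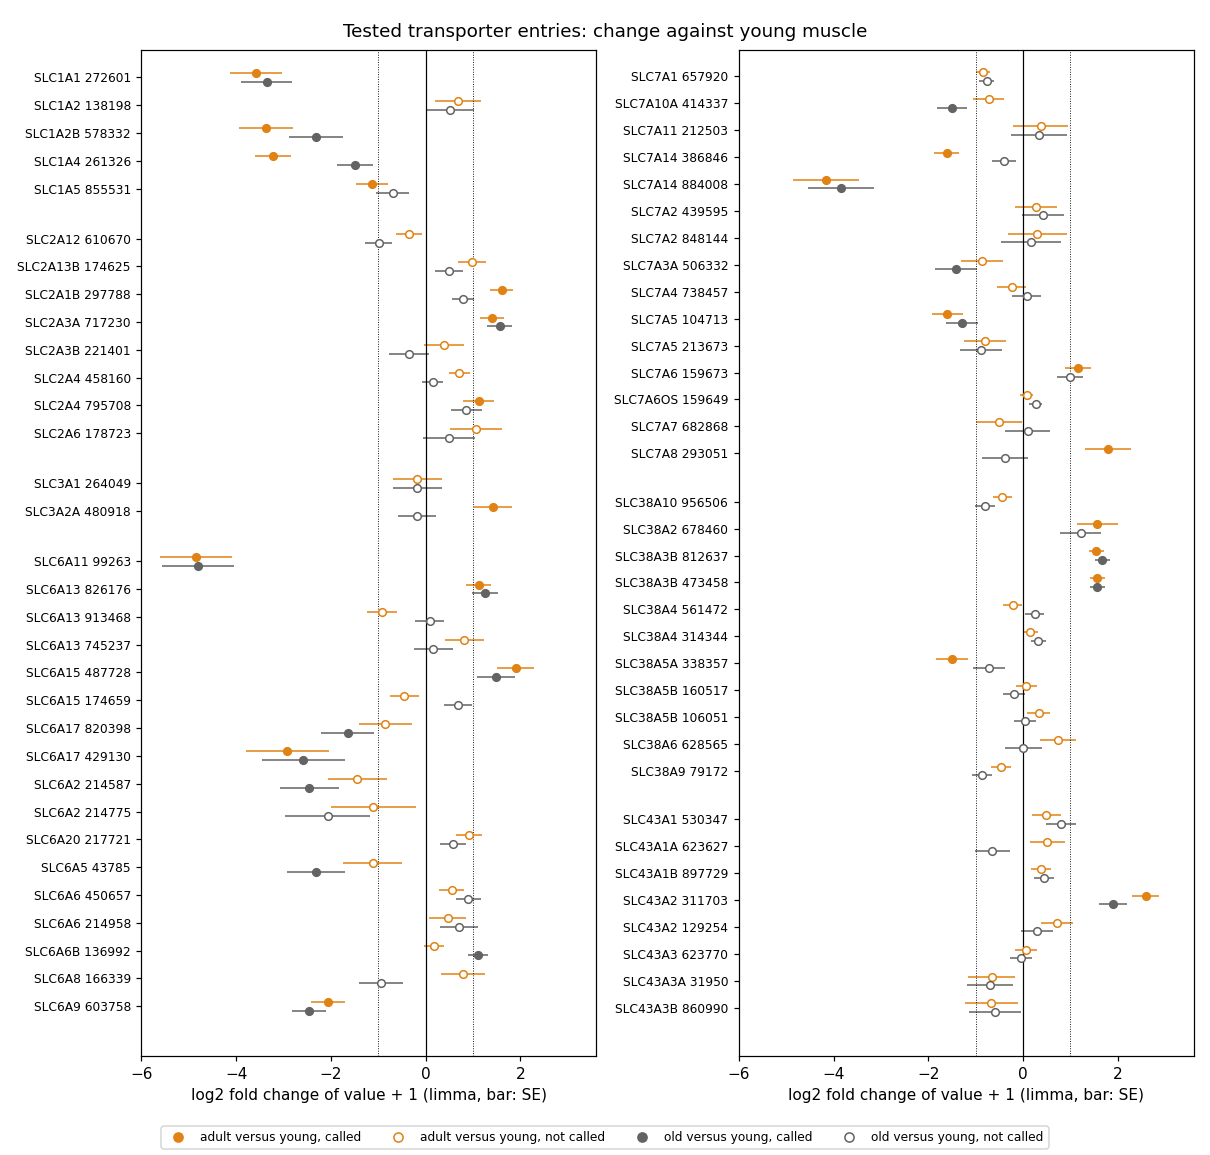
Log2 fold changes of 66 of the 68 tested entries in adult versus young (orange) and old versus young (grey) muscle, as points with the standard error of the limma fit as bars, entry names on the vertical axis by family and dotted lines at a log2 fold change of 1 in either direction. Filled points are called entries: the transmitter carriers of SLC1 and SLC6 reach down to -4.85 and SLC43A2 entry 311703 up to 2.59.

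The glutamine carrier SLC38A3B had the smallest adjusted p among the members in each comparison against young muscle. SLC38A3 belongs to the system N carriers, which move glutamine, histidine and asparagine with sodium in exchange for protons. Entry 812637 stood at 4500, 3881 and 4678 normalized counts in young replicates 1 to 3, at 13237, 12555 and 12225 in adults and at 14358, 15557 and 11895 in old fish. All adult and old values were above all young ones. It was 2.92-fold higher in adult than in young muscle (log2 fold change 1.55, SE 0.16, limma adjusted p = 9.53e-05) and 3.19-fold higher in old muscle (log2 1.67, SE 0.16, adjusted p = 0.000117).

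The other entry of that name had fold changes of the same size. SLC38A3B entry 473458 had 518, 438 and 493 normalized counts in young fish, 1422, 1546 and 1325 in adult fish and 1619, 1559 and 1157 in old fish. Again no young value reached an adult or old one, and the log2 fold changes were 1.57 (SE 0.16, adjusted p = 8.79e-05) and 1.57 (SE 0.16, adjusted p = 0.000152). The ratio of the normalized counts of the entries, which are not per length, was 8.12 to 10.3 over the 9 libraries. Old and adult muscle did not differ beyond their spread in either entry, with log2 differences of 0.13 and 0.00 (SE 0.16 for each). Reads that match several places were left out when the authors counted, so the split between near-identical entries is uncertain.

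Among the remaining SLC38 entries SLC38A2, a sodium-coupled carrier of alanine, glutamine and other small neutral amino acids that is induced by amino acid shortage in mammals, was uneven in young fish. It had 751, 217 and 165 normalized counts in young fish, 673, 1007 and 1040 in adult fish and 608, 739 and 757 in old fish. Young replicate 1 lay within the adult and old range and the other young values far below it. The adult log2 fold change of 1.57 (SE 0.44, adjusted p = 0.0173) was called and the old one of 1.22 (SE 0.44, adjusted p = 0.0583) was not. Without young replicate 1 the old value was 1.88 and called, while the adult call was lost without young replicate 2 (1.33), young replicate 3 (1.14), adult replicate 2 (1.48) or adult replicate 3 (1.45).

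SLC38A5A, another system N carrier, fell in adults. Its values were 186, 120 and 94 in young fish, 48, 50 and 37 in adult fish and 57, 130 and 62 in old fish, so that adults lay below all young fish and old replicate 2 lay inside the young range. The adult log2 fold change was -1.50 (SE 0.33, adjusted p = 0.00553), and the old one of -0.72 (SE 0.33, adjusted p = 0.126) was called only without old replicate 2 (-1.09). The entries of its sister copy SLC38A5B did not pass the test in any comparison, entry 160517 with 276 to 571 and entry 106051 with 224 to 415 over all libraries.

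SLC38A4, a carrier of small neutral amino acids with its main known site in mammalian liver, was not called. Entry 561472 had 1980, 1955 and 1845 normalized counts in young fish, 1937, 1342 and 1742 in adult fish and 1793, 3100 and 2146 in old fish, and all 3 groups overlapped. The log2 fold changes against young were -0.22 and 0.25 (SE 0.21 for each). The lysosomal member SLC38A9, which in mammals signals arginine in the lysosome to the growth kinase mTORC1, had 134, 113 and 110 in young fish, 83, 70 and 108 in adult fish and 74, 67 and 55 in old fish. Each old value lay below each young one, and the old log2 difference of -0.86 (SE 0.21, adjusted p = 0.0125) passed on p and missed the fold limit.

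SLC43A2 had the largest called increase among the members. It encodes a carrier that lets branched-chain amino acids, phenylalanine and methionine pass without a heavy chain. Entry 311703 had 514, 393 and 334 normalized counts in young fish, 1603, 3266 and 2811 in adult fish and 2092, 1087 and 1551 in old fish. Every adult and old value exceeded every young one, and adults and old fish overlapped. It was 6.01-fold higher in adult (log2 2.59, SE 0.29, limma adjusted p = 0.000136) and 3.73-fold higher in old than in young muscle (log2 1.90, SE 0.29, adjusted p = 0.00115).

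No further SLC43 entry passed. SLC43A1B, a carrier of the same class, had 624, 679 and 916 in young fish, 1159, 714 and 1022 in adult fish and 1084, 1098 and 835 in old fish, with log2 differences of 0.37 and 0.45 (SE 0.21 for each). The second SLC43A2 entry, 129254, overlapped between ages at 42 to 182, with an adult log2 difference of 0.71 (SE 0.34, adjusted p = 0.129).

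Glucose carriers were higher in adult than in young muscle, in 3 of 8 tested SLC2 entries. SLC2A1B, a copy of the carrier that serves basal glucose uptake in many cell types, had 70, 79 and 58 normalized counts in young fish, 179, 251 and 206 in adult fish and 87, 124 and 157 in old fish. The old values lay between the other ages and overlapped neither. It rose 3.04-fold in adults (log2 1.60, SE 0.24, limma adjusted p = 0.000576), and the old difference of 0.79 (SE 0.24, adjusted p = 0.0290) was under the fold limit and was called only without old replicate 1 (1.02).

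SLC2A3A, a copy of the high-affinity glucose carrier known from neurons and blood cells of mammals, was raised at either later age. Its values were 50, 77 and 47 in young fish, 161, 142 and 152 in adult fish and 202, 115 and 209 in old fish, with no overlap between young and later fish. The log2 fold changes were 1.40 (SE 0.26, adjusted p = 0.00203) and 1.56 (SE 0.26, adjusted p = 0.00168). The other copy, SLC2A3B, stood at 10 to 32 in all libraries and was not called.

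SLC2A4, the insulin-responsive glucose carrier of muscle and fat, has 2 tested entries. Entry 458160 had 108, 173 and 108 normalized counts in young fish, 226, 202 and 197 in adult fish and 175, 116 and 137 in old fish. Adults were above all other fish, while young and old overlapped, and the adult log2 difference of 0.71 (SE 0.22, adjusted p = 0.0286) was under the fold limit. Entry 795708, with 13, 19 and 14 in young fish, 40, 38 and 26 in adult fish and 38, 18 and 33 in old fish, was called in adults (log2 1.12, SE 0.33, adjusted p = 0.0224). That call was lost without young replicate 1 (1.02), young replicate 3 (1.07), adult replicate 1 (1.01) or adult replicate 2 (1.04), and the old difference of 0.86 was called without old replicate 2 (1.17).

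A further pair of SLC2 members were near the limits. The inositol carrier SLC2A13B had 37, 32 and 30 in young fish, 40, 83 and 86 in adult fish and 54, 38 and 49 in old fish, with an adult log2 difference of 0.98 (SE 0.30, adjusted p = 0.0258). SLC2A12, a further glucose carrier of mammalian muscle and fat, had 56, 44 and 61 in young fish, 40, 38 and 47 in adult fish and 33, 32 and 17 in old fish, with an old difference of -0.99 (SE 0.28, adjusted p = 0.0236).

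**Figure D2:**
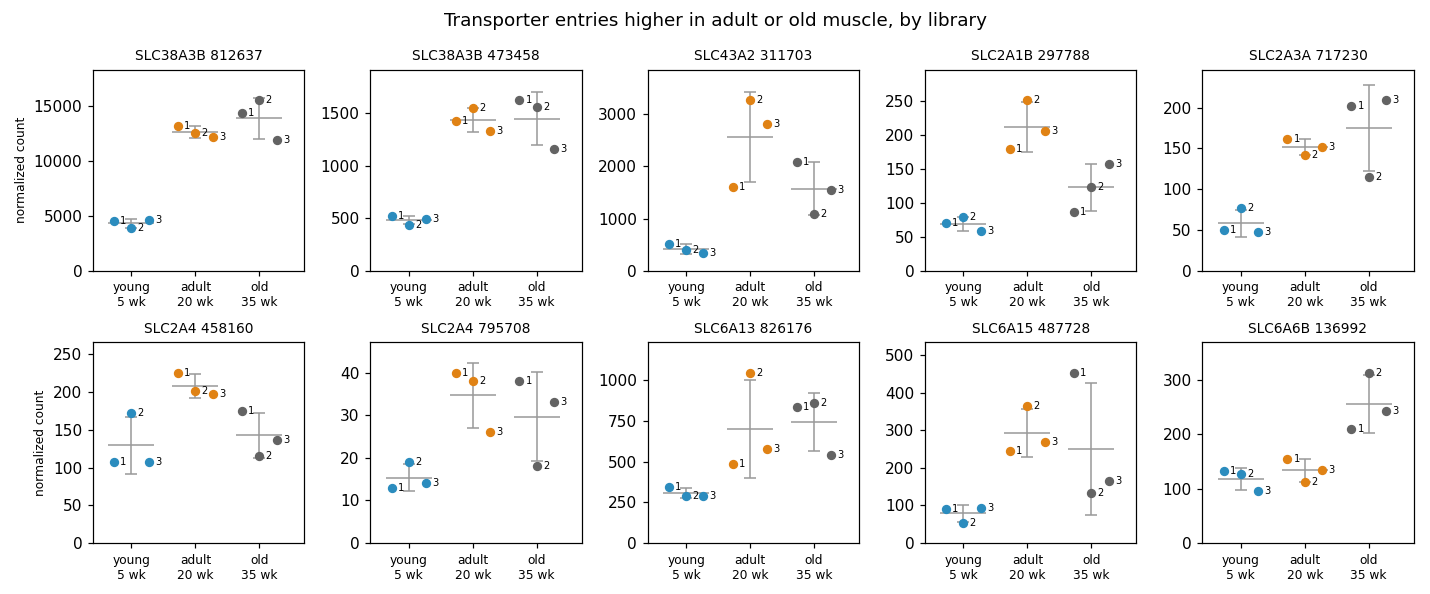
Normalized counts by library (points, numbered by replicate) of 10 entries higher in adult or old muscle, with the mean (horizontal line) and SD (bar) of the 3 fish per age. Every SLC38A3B entry 812637 value is 3881 to 4678 in young and at least 11895 in later fish, while SLC6A6B separates only the old fish, at 210 to 314.

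The heavy chain SLC3A2A and the light chains SLC7A8 and SLC7A6 were higher in adult than in young muscle, whereas the light chain SLC7A5 was lower. SLC3A2A encodes the heavy chain that brings SLC7 light chains to the surface, and it had 540, 354 and 350 normalized counts in young fish, 622, 1714 and 1209 in adult fish and 198, 416 and 546 in old fish. Adults lay above all other fish, and young and old overlapped. It was 2.68-fold higher in adult than in young muscle (log2 1.42, SE 0.40, limma adjusted p = 0.0184), and the old versus adult difference was -1.61 (SE 0.40, adjusted p = 0.0575). The adult call was lost without young replicate 2 (1.32), young replicate 3 (1.31), adult replicate 2 (1.09) or adult replicate 3 (1.34), and the old versus adult difference was called without adult replicate 1 (-2.01) or old replicate 3 (-1.92).

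SLC7A8, a light chain that exchanges neutral amino acids, had the same order of ages. Its values were 244, 200 and 293 in young fish, 375, 1614 and 1000 in adult fish and 245, 267 and 97 in old fish. The adults spread over a wide range, with replicate 1 near the young fish and none overlapping another age. SLC7A8 rose 3.48-fold from young to adult (log2 1.80, SE 0.48, adjusted p = 0.0148) and was 4.55-fold lower in old than in adult muscle (log2 -2.19, SE 0.48, adjusted p = 0.0381). The adult versus young call was lost without young replicate 2 (1.66) or adult replicate 2 (1.33). The old versus adult call was lost without any of the young replicates (-2.19 in each fit, adjusted p = 0.0561 to 0.0638), adult replicate 2 (-1.72), adult replicate 3 (-2.06) or old replicate 3 (-1.72).

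SLC7A6, a light chain that exchanges cationic for neutral amino acids, had 39, 29 and 22 normalized counts in young fish, 58, 68 and 75 in adult fish and 83, 51 and 49 in old fish. Young fish lay below all others, with log2 fold changes of 1.16 (SE 0.28, adjusted p = 0.00821) in adults and 0.99 (SE 0.28, adjusted p = 0.0216) in old fish. The adult call was lost without young replicate 3 (0.97), and the old difference passed when young replicate 1 (1.20), old replicate 2 (1.10) or old replicate 3 (1.13) was left out. SLC7A6OS, on the opposite side of the locus, had 377, 386 and 439 in young fish, 408, 417 and 440 in adult fish and 541, 450 and 455 in old fish, with log2 differences of 0.08 and 0.26 (SE 0.14 for each). The libraries were stranded, but whether the count used strand is not given in the sources used here, so reads of this pair of neighbours may not be fully separated.

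SLC7A5, the light chain that brings leucine and other large neutral amino acids into growing cells, went down instead. Entry 104713 had 44, 62 and 46 normalized counts in young fish, 10, 18 and 22 in adult fish and 21, 15 and 25 in old fish. All young values were above all later ones. It was 3.03-fold lower in adult (log2 -1.60, SE 0.33, adjusted p = 0.00388) and 2.44-fold lower in old muscle (log2 -1.29, SE 0.33, adjusted p = 0.0151), the latter not called without young replicate 2 (-1.14). Entry 213673 had 20, 28 and 21, then 10, 18 and 11, then 8, 8 and 25, and was not called, with log2 differences of -0.81 and -0.89 (SE 0.44 for each).

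Of the cationic carriers, which bring in arginine and lysine without a heavy chain, SLC7A1 and SLC7A3A had their highest mean in young muscle. SLC7A1 had 538, 551 and 595 normalized counts in young fish, 296, 278 and 372 in adult fish and 314, 335 and 338 in old fish, a tight separation. Its log2 differences of -0.84 (SE 0.15, adjusted p = 0.00171) and -0.77 (SE 0.15, adjusted p = 0.00395) were under the fold limit. SLC7A3A had 410, 121 and 121 in young fish, 80, 111 and 112 in adult fish and 42, 95 and 78 in old fish, where young replicate 1 stood far above the other 8 libraries. Its old log2 fold change of -1.41 (SE 0.44, adjusted p = 0.0348) was called, but no longer so when young replicate 1 (-0.83), old replicate 1 (-1.07) or old replicate 3 (-1.51) was left out. SLC7A2, a further cationic carrier, had 2 tested entries at 22 to 75 and 3 to 16, which were not called.

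The neutral amino acid exchangers of SLC1 had their lowest mean in adults. SLC1A4, which carries alanine, serine and cysteine, had 519, 412 and 309 normalized counts in young fish, 38, 50 and 40 in adult fish and 67, 245 and 178 in old fish. The 3 ages did not overlap at all. It was 9.35-fold lower in adult (log2 -3.22, SE 0.39, limma adjusted p = 0.000178) and 2.81-fold lower in old than in young muscle (log2 -1.49, SE 0.39, adjusted p = 0.0161), and 3.32-fold higher in old than in adult muscle (log2 1.73, SE 0.39, adjusted p = 0.0394). The old versus young call was lost without young replicate 1 (-1.31), young replicate 2 (-1.48) or old replicate 1 (-0.95). The old versus adult call was lost without each library other than old replicate 1, at 1.35 to 1.85 and adjusted p of 0.0586 to 0.122.

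SLC1A5, the sodium-dependent glutamine exchanger of proliferating cells, had 1301, 831 and 1116 in young fish, 914, 355 and 353 in adult fish and 533, 867 and 609 in old fish. Adult replicate 1 lay inside the young range and the other adults far below it. The adult log2 fold change was -1.13 (SE 0.34, adjusted p = 0.0244) and the old one -0.70 (SE 0.34, adjusted p = 0.146). The adult call was lost without young replicate 1 (-0.99), young replicate 3 (-1.10), adult replicate 2 (-0.90) or adult replicate 3 (-0.90).

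**Figure D3:**
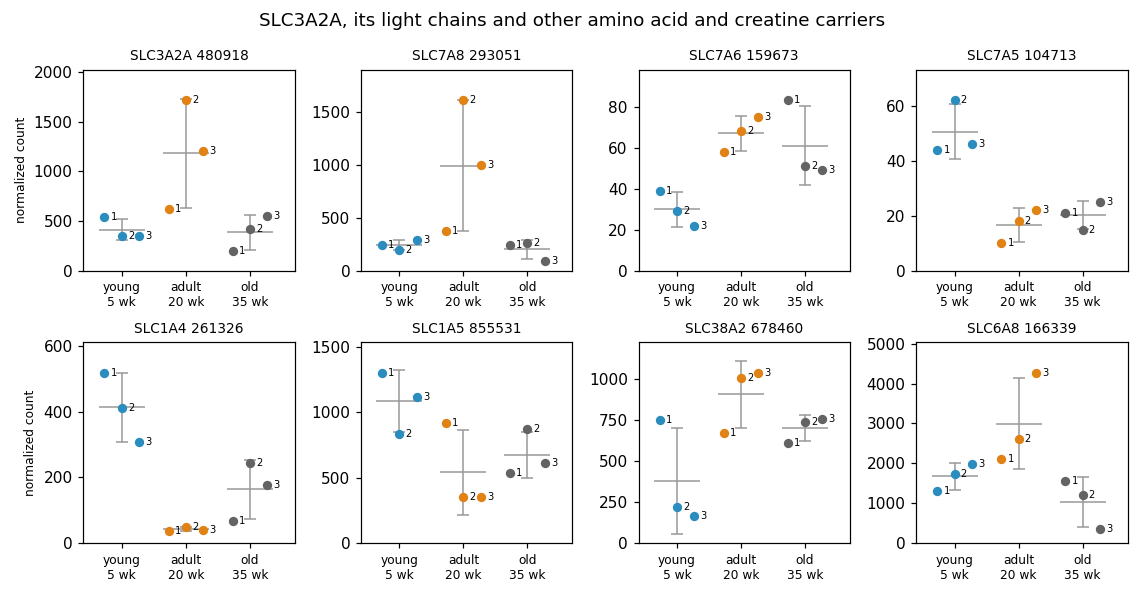
Normalized counts by library (points, numbered by replicate) of SLC3A2A, SLC7 light chains, SLC1 exchangers, SLC38A2 and SLC6A8, with the mean (horizontal line) and SD (bar) of the 3 fish per age. SLC3A2A and SLC7A8 peak in adult replicates 2 and 3, while SLC1A4 is lowest in adults at 38 to 50 and SLC7A5 is highest in young fish at 44 to 62.

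Among the SLC6 carriers that supply muscle with osmolytes and energy buffers, the taurine carrier SLC6A6B set old fish apart. It had 132, 128 and 95 normalized counts in young fish, 155, 112 and 134 in adult fish and 210, 314 and 244 in old fish. All old values exceeded all others, and young and adult fish overlapped. The old versus young log2 fold change was 1.10 (SE 0.21, limma adjusted p = 0.00348) and the old versus adult difference 0.92 (SE 0.21, adjusted p = 0.0418), under the fold limit. The call was lost without young replicate 3 (0.95) or old replicate 2 (0.94) and with equal library totals (0.83), and the old versus adult difference was called without adult replicate 1 (1.04) or old replicate 1 (1.06). SLC6A6 entry 450657, at 150, 118 and 83, then 161, 206 and 140, then 155, 285 and 220, had log2 differences of 0.55 and 0.90 (SE 0.27 for each), and entry 214958 had 0.46 and 0.70 (SE 0.40 for each), neither called.

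The creatine carrier SLC6A8 was not called in any comparison. It had 1314, 1733 and 1981 normalized counts in young fish, 2103, 2602 and 4276 in adult fish and 1548, 1214 and 341 in old fish. Adults lay above all other fish, and old replicate 3 far below all. The log2 differences were 0.79 (SE 0.47, adjusted p = 0.216) in adults, -0.94 (SE 0.47, adjusted p = 0.155) in old fish and -1.73 (SE 0.47, adjusted p = 0.0717) from adult to old. The last was called without old replicate 1 (-2.15), and with equal library totals the old fish were called lower than both young (-1.21) and adult fish (-1.89).

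SLC6A13, which carries GABA and taurine in mammals, rose at each later age. Entry 826176 had 342, 286 and 292 in young fish, 485, 1047 and 577 in adult fish and 833, 862 and 540 in old fish, all above the young fish. The log2 fold changes were 1.12 (SE 0.27, adjusted p = 0.00888) and 1.25 (SE 0.27, adjusted p = 0.00660). The adult call was lost without adult replicate 2 (0.79) and the old one with equal library totals (0.98). The other tested entries of this name differed: entry 913468 had 78, 68 and 52 in young fish, 43, 43 and 21 in adult fish and 52, 82 and 78 in old fish, with an adult log2 difference of -0.92 (SE 0.31, adjusted p = 0.0393), and entry 745237 stood at 5 to 18.

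SLC6A15, a sodium-dependent carrier of branched-chain amino acids and proline that is best known from mammalian brain, rose as well. Entry 487728 had 90, 53 and 94 normalized counts in young fish, 245, 365 and 269 in adult fish and 453, 134 and 165 in old fish, with all later values above the young ones. It was 3.73-fold higher in adults (log2 1.90, SE 0.39, adjusted p = 0.00394) and 2.79-fold higher in old fish (log2 1.48, SE 0.39, adjusted p = 0.0178). The old call was lost without young replicate 2 (1.22) or old replicate 1 (0.95). Entry 174659 was not called, at 40, 59 and 34, then 31, 27 and 37, then 104, 58 and 56.

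SLC6A11, a carrier that clears the transmitter GABA around neurons and glia, was far lower at both later ages. It had 47, 139 and 105 normalized counts in young fish, 0, 5 and 4 in adult fish and 7, 1 and 1 in old fish. Every young value was above every later one, with log2 fold changes of -4.85 and -4.81 (SE 0.76 for each).

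The glycine carriers followed. SLC6A9, the glial glycine carrier, had 91, 140 and 131 normalized counts in young fish, 27, 45 and 17 in adult fish and 25, 14 and 25 in old fish. All young values were above all later ones, and the log2 fold changes were -2.07 (SE 0.36, adjusted p = 0.00138) and -2.47 (SE 0.36, adjusted p = 0.000882). SLC6A5, the neuronal glycine carrier, had 7, 32 and 25 in young fish, 6, 11 and 7 in adult fish and 3, 1 and 6 in old fish. Young replicate 1 overlapped the adults, whose log2 difference of -1.12 (SE 0.62, adjusted p = 0.188) was called only without young replicate 1 (-1.74). The old value of -2.31 (SE 0.62, adjusted p = 0.0180) was called, and not so without young replicate 2 (-1.91) or young replicate 3 (-2.09).

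SLC6A2, the noradrenaline carrier of sympathetic nerves, had 11, 55 and 23 normalized counts for entry 214587 in young fish, 8, 9 and 8 in adult fish and 6, 6 and 1 in old fish. The 3 ages did not overlap. The old log2 fold change of -2.45 (SE 0.62, adjusted p = 0.0137) was lost without young replicate 2 (-1.88), and the adult difference of -1.44 (SE 0.62, adjusted p = 0.0948) was called without young replicate 1 (-1.98) or old replicate 3 (-1.44, adjusted p = 0.0452). The other tested SLC6A2 entry, 214775, had 3, 36 and 3, then 4, 2 and 3, then 1, 3 and 0. Its ages overlapped, only young replicate 2 stood out, and it was not called (log2 -1.10 and -2.07, SE 0.89 for each). SLC6A17, a carrier of synaptic vesicles for neutral amino acids, had for entry 820398 9, 12 and 16 in young fish, 5, 8 and 6 in adult fish and 1, 8 and 3 in old fish. Its old log2 fold change of -1.65 (SE 0.56, adjusted p = 0.0484) was called in the full set and, of the fits without a library, only without old replicate 2. Entry 429130 of that name had 6, 18 and 12, then 1, 1 and 0, then 7, 0 and 0. In sum the young counts were 18.0 times the adult ones (95% binomial interval on normalized sums, without the spread between fish, 4.63 to 154.31). The log2 fold changes were -2.92 and -2.59 (SE 0.88 for each). Both passed the limits of a call, but the entry was tested only through its young values, so these are a description. The adult one missed the limits without adult replicate 2 (-3.09) or adult replicate 3 (-2.59). The old one missed them without any of the adult replicates (-2.59 in each fit), old replicate 2 or old replicate 3 (-2.09 in each). Without any of the young replicates or old replicate 1 the entry fell under the mean of 5 and was not tested.

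Of 3 tested glutamate carriers of SLC1, 2 entries were lower at both later ages. SLC1A1, a neuronal and epithelial glutamate carrier, had 25, 45 and 42 normalized counts for entry 272601 in young fish, 4, 2 and 1 in adult fish and 5, 1 and 3 in old fish. SLC1A2B, a copy of the main astroglial glutamate carrier, had 39, 124 and 65 in young fish, 8, 2 and 10 in adult fish and 7, 16 and 19 in old fish. Young fish lay above all others in each. SLC1A1 had log2 fold changes of -3.58 and -3.36 (SE 0.54 for each), and SLC1A2B of -3.37 (SE 0.57, adjusted p = 0.00118) and -2.31 (SE 0.57, adjusted p = 0.0124), the last not called without young replicate 2 (-1.88). SLC1A2 entry 138198 had 5 to 12 in young fish, 8 to 26 in adult fish and 8 to 17 in old fish and was not called (log2 0.68 and 0.52).

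Among SLC7 entries, SLC7A14, a lysosomal member found in mammalian neurons, had a pair of entries with unlike courses. Entry 884008 had 11, 43 and 21 normalized counts in young fish, 0, 0 and 1 in adult fish and 0, 1 and 1 in old fish. In sum the young counts were 75.0 times the adult ones (95% binomial interval on normalized sums 13.06 to 3001.34). They were 37.5 times the old ones (10.03 to 315.34), and these intervals leave out the spread between fish. Entry 386846 had 109, 61 and 59 in young fish, 24, 21 and 25 in adult fish and 57, 51 and 58 in old fish, so that old fish lay just under the young and well above the adults. Its log2 fold change was -1.61 (SE 0.26, adjusted p = 0.000915) from young to adult, -0.40 (SE 0.26, adjusted p = 0.270) from young to old and 1.21 (SE 0.26, adjusted p = 0.0329) from adult to old. The last call was lost without young replicate 3, each adult replicate or each old replicate, at 1.14 to 1.27 and adjusted p of 0.0501 to 0.125.

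SLC7A10A, a copy of the light chain that exchanges serine and glycine in brain and in fat cells of mammals, had 54, 88 and 50 normalized counts in young fish, 23, 46 and 48 in adult fish and 19, 22 and 23 in old fish. All young values were above all others. The adult difference of -0.73 (SE 0.32, adjusted p = 0.105) was not called and the old one of -1.50 (SE 0.32, adjusted p = 0.00633) was.

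**Figure D4:**
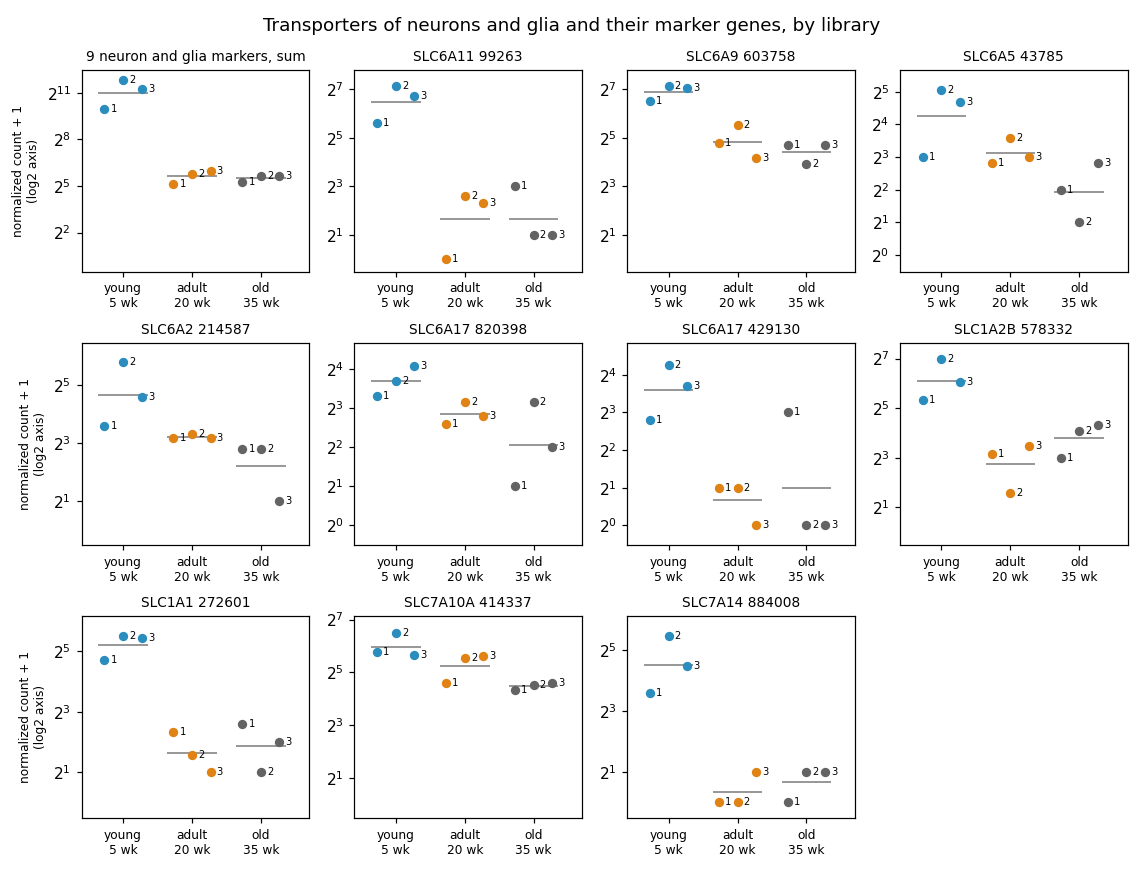
Normalized count + 1 by library on a log2 axis (points, numbered by replicate, line at the mean of the log2 values). Shown are the sum of the 9 neuron and glia markers called lower in adults and 10 called transporter entries of neurons and glia. These 9 markers sum to 993, 3568 and 2376 in young and to 34 to 61 in all later fish, a fall that their selection ensures. The whole marker list sums to 3382 to 8068 in young, 2833 to 3566 in adult and 3207 to 4094 in old fish. In most panels young replicate 1 is the lowest and young replicate 2 the highest of the young fish.

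Marker genes of neurons and glia moved with these carriers. Of 18 marker entries, 14 were tested, 9 were lower in adult (64.3%, against 11.4% of all) and 10 lower in old than in young muscle (71.4%, against 9.84%). These markers were chosen with earlier results of these data known, so the shares are a description only. The astrocyte filament GFAP had 180, 898 and 570 normalized counts in young fish, 5, 0 and 1 in adult fish and 1, 3 and 0 in old fish. The neuronal filament NEFMA had 294, 1039 and 768, then 0, 7 and 7, then 2, 1 and 4, and the synaptic gene SNAP25 had 196, 658 and 332, then 6, 5 and 10, then 19, 11 and 10. The whole list summed to 3382 to 8068 in young fish, 2833 to 3566 in adult fish and 3207 to 4094 in old fish. Most of the sum in each later fish came from the myelin gene MBPB, which had 1535, 2924 and 2366 in young fish, 2130, 2173 and 1797 in adult fish and 2342, 2398 and 3181 in old fish and was not called. SYT1 entry 225173, a synaptic gene, was at 1, 1 and 1 in young fish and at 0 in all adult and old libraries.

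The order of the young libraries was also shared. Replicate 1 below replicate 3 below replicate 2 was the order of all 9 of these markers and of 10 of the 17 members lower than in young muscle (58.8%), against 16.7% of all tested entries and 1 of 13 members higher than in young muscle (7.69%), a pattern looked for after the values had been seen. The part of neural tissue in the fall of the transmitter carriers was not tested. In whole tissue, fewer cells of a type and less RNA per cell cannot be told apart.

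Markers of other cell types were summed in the same way. The leukocyte list summed to 314 to 457 in young fish, 734 to 1489 in adult fish and 547 to 674 in old fish, with 4 of 9 tested entries higher in adults and 1 in old fish. The adipocyte list, of which 3 of 6 listed genes were found, summed to 850 to 1191, 1875 to 2988 and 1316 to 1378. Its 2 tested entries, each of the lipase gene LPL, were higher in adults. CIDEC was at 0 to 6 and LEPA at 0, so this sum is almost wholly that of LPL and not a measure of fat cells. Endothelial markers summed to 443 to 559, 635 to 817 and 536 to 739, and 1 of 5 tested entries, the receptor KDR, was higher in adults (log2 1.02, SE 0.21). Epidermal markers summed to 4820 to 9079, 5032 to 5590 and 5966 to 15031. Of their 7 tested entries, TP63 entry 703567, for a transcription factor of basal epidermis, was higher in adult and old fish (log2 1.81 and 2.34, SE 0.43 for each) and TP63 entry 50107 was higher in old fish (log2 2.13, SE 0.52). The other tested entries, of EPCAM, KRT4, KRT8, KRT18 and CDH1, were not called. Their log2 differences were -2.06 to -0.26 in adults and -1.02 to 0.51 in old fish, and the medians of the 7 were -0.39 and -0.53. Erythrocyte markers, of which 2 of 8 listed genes were found, summed to 789 to 994, 639 to 698 and 651 to 817, with ALAS2, the first enzyme of haem synthesis in red cells, lower in old fish (log2 -1.26, SE 0.41). Their part in the transporter results was not tested.

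Of 45 tested entries of genes that sense or respond to amino acid supply, 9 were called higher (20%, against 10.7% of all tested entries) and 6 lower (13.3%, against 11.4%) in adult than in young muscle. In old fish 5 were higher (11.1%, against 7.91%) and 5 lower (11.1%, against 9.84%), so that apart from the higher entries in adults these shares were near those of all entries. This list was chosen with earlier results of these data known, so its shares are a description only. Of the 40 listed genes 31 were found by name, and ATF4, ASNS, TRIB3 and SESN2 were among those not found. Several of the higher entries in adults belong to DEPDC5. The lower ones in adults include ATF5 entry 481024 (log2 -1.04, SE 0.33) and NPRL3 (-1.76, SE 0.33), which was also lower in old fish (-1.86, SE 0.33). CHAC1 entry 58493, a glutathione-degrading enzyme of the amino acid response, had 70, 16 and 30 normalized counts in young fish, 496, 720 and 681 in adult fish and 119, 132 and 87 in old fish. The leucine sensor family member SESN1 entry 483825 had 298, 285 and 312, then 1379, 2188 and 1975, then 689, 840 and 479. Each was highest in adults, with log2 fold changes against young of 4.22 (SE 0.41, limma adjusted p = 6.92e-05) and 2.60 (SE 0.22, adjusted p = 3.77e-05), and lower in old than in adult fish by -2.48 (adjusted p = 0.0127) and -1.47 (adjusted p = 0.00846). The other CHAC1 entry, 952078, had higher counts and went the other way. It had 3332, 2152 and 1679 in young fish, 871, 2074 and 1511 in adult fish and 660, 620 and 1531 in old fish. Its adult log2 difference of -0.71 (SE 0.39, adjusted p = 0.183) was not called and the old one of -1.42 (SE 0.39, adjusted p = 0.0201) was.

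Of other members of the list, PHGDH and an entry of BCAT2 fell at both later ages, while an entry of GLS2 rose in adults only. The serine synthesis enzyme PHGDH had 105, 81 and 29 in young fish, 8, 8 and 7 in adult fish and 5, 9 and 3 in old fish, with log2 fold changes of -2.88 (SE 0.49) and -3.36 (SE 0.49). BCAT2 entry 247399, for the mitochondrial enzyme that begins branched-chain amino acid breakdown in muscle, had 294, 313 and 333, then 75, 102 and 133, then 106, 128 and 182 (log2 -1.63 and -1.20, SE 0.24 for each). BCAT2 entry 778290 was not called (log2 -0.64 and -0.07, SE 0.36 for each). GLS2 entry 220820, for an enzyme that releases ammonia from glutamine, was highest in adults, with 147, 148 and 197 in young fish, 489, 659 and 626 in adult fish and 160, 196 and 149 in old fish. GLS2 entry 706372 was not called (log2 -0.24 and -0.45, SE 0.35 for each).

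The list for taurine and creatine synthesis also holds creatine kinases, which use creatine and do not make it, and was chosen with earlier results of these data known. Of its 15 tested entries, 5 were lower in adult (33.3%, against 11.4% of all tested entries) and 3 lower in old than in young muscle (20%, against 9.84%), and 0 were higher. Those lower in adults were GATM, ADOA and the kinases CKB, CKMT1 and CKBB, and those lower in old fish GATM, CKMT1 and CKBB. The kinase entry CKMB, at 77608 to 120800 normalized counts, was not called (log2 -0.23 and 0.10, SE 0.22 for each). Nor were the tested entries of the kinase CKMT2, whose old log2 differences were positive and under the fold limit. These were 0.72 (SE 0.18, limma adjusted p = 0.0132) for entry 139699 and 0.84 (SE 0.16, adjusted p = 0.0036) for entry 612065. The synthesis entries of GAMT (log2 -0.45 and 0.05, SE 0.37 for each), CSAD, ADOB and GADL1 were not called. GATM, which makes the precursor of creatine, had 1502, 1585 and 1956 normalized counts in young fish, 279, 115 and 468 in adult fish and 277, 448 and 172 in old fish. All young values were above all later ones, with log2 fold changes of -2.75 (SE 0.44, limma adjusted p = 0.000944) and -2.59 (SE 0.44, adjusted p = 0.00198). The brain-type creatine kinase CKBB, with 98, 353 and 184, then 9, 23 and 6, then 20, 39 and 42, was lower too and had the young order of the neural markers. The kinases CKB, at 286, 181 and 232 in young fish, and CKMT1, at 29, 27 and 17, did not have that order.

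In the list for glucose uptake and vesicle trafficking, 13 of 43 tested entries were called higher in adult than in young muscle (30.2%, against 10.7% of all). In old muscle 8 were called higher than in young muscle (18.6%, against 7.91%). The lower ones, 4 in adults (9.3%, against 11.4%) and 2 in old fish (4.65%, against 9.84%), were no more frequent than among all entries. The list was chosen with earlier results of these data known, so its shares are a description only. Entries of a gene were counted apart, and several of the higher ones in adults belong to MEF2A, ARRDC3 and HK2. Of the trafficking genes, MYO1C entry 511817 was higher in adults (log2 1.04, SE 0.21). RAB8A entry 188322 (log2 -1.28, SE 0.16), VAMP2 entry 187361 (-2.75, SE 0.71) and RAC1 entry 968553 (-1.53, SE 0.45) were lower in adults. Other tested entries of these names, and those of TBC1D1, TBC1D4, RAB10, RAB13, STX4, STXBP3, SORT1 and LNPEP, were not called in adults. TXNIP, an arrestin-domain protein, draws glucose carriers from the cell surface in mammals. Its copy TXNIPA had 125, 82 and 111 normalized counts in young fish, 456, 831 and 877 in adult fish and 181, 201 and 406 in old fish, and TXNIP had 365, 199 and 236, then 604, 840 and 793, then 752, 855 and 1180. TXNIPA was highest in adults (log2 2.72, SE 0.33, limma adjusted p = 0.000178, against young) and TXNIP rose at either later age (log2 1.51 and 1.82, SE 0.24 for each). ARRDC2, of the same protein family, had 46, 122 and 36 in young fish, 1875, 2067 and 2216 in adult fish and 146, 351 and 505 in old fish.

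The transcription factors that drive the insulin-responsive glucose carrier in mammals were in this list as well. MEF2AA had 352, 287 and 317 in young fish, 959, 580 and 576 in adult fish and 780, 757 and 646 in old fish (log2 1.11 and 1.19, SE 0.20 for each). The coactivator PPARGC1A had 174, 308 and 403, then 1087, 1067 and 1710, then 466, 528 and 529, highest in adults with a log2 fold change of 2.17 against young (SE 0.28, adjusted p = 0.000252) and -1.31 from adult to old (SE 0.28, adjusted p = 0.0331). The hexokinase HK2 entry 805233 had 5, 4 and 9, then 17, 55 and 20, then 10, 6 and 9, and HK1 entry 380531 had 202, 202 and 211, then 80, 106 and 74, then 89, 132 and 129. Other entries of these names differed. HK1 entry 448011 had 360, 372 and 421, then 525, 880 and 710, then 806, 587 and 432. Its log2 differences of 0.85 (SE 0.24, limma adjusted p = 0.0183) and 0.62 (SE 0.24) were under the fold limit. HK1 entry 603994 (log2 0.37 and 0.26) and HK2 entry 773222 (log2 0.53 and 0.19) were not called, and HK2 entry 237625 was higher in adults (log2 1.05).

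Several members shared a name. Of the 81 names, 33 had more than 1 entry and 14 had more than 1 tested entry. Of these 14, all tested entries were called in adult versus young muscle for 2, some for 7 and none for 5, so a change in an entry of a name was in most cases not seen in each entry. Among the entries too low to test, SLC7A9, a light chain of the heavy chain SLC3A1, had 8, 8 and 5 in young, 1, 2 and 0 in adult and 0 in all old libraries for entry 979515. SLC3A1 itself was at 3 to 10 in every library, with a log2 difference of -0.17 (SE 0.51) against young at each later age.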

How the data were processed

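The authors trimmed the reads (Trimmomatic 0.33), aligned them to the genome NotFur1 (STAR 2.4.2a) and counted those inside exons per gene (featureCounts 1.4.5-p1), leaving out reads of several genes or places. The deposited values are a signal: whole numbers already divided by 1 size factor per library (DESeq per the labels). Because these are no raw counts, no count test was run. The size factors, estimated from the spacing of values at 0.692 to 1.25, gave the read numbers, and 0 columns were left out.

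Entries with a mean of at least 5 were tested on log2(value + 1) with limma 3.58.1 (R 4.3.3), using 1 mean for each age and eBayes with a trend, at an adjusted p of at most 0.05 and an absolute log2 fold change of at least 1, after the limits in the methods of the study. Fold changes on this scale understate those of low entries. Intervals for sums of 1 to 3 are binomial ones at 95%, taken on summed normalized counts as if these were reads. They approximate counting error only and leave out the spread between fish. The scripts were tested on simulated data and used pandas 2.3.3, scipy 1.17.1, matplotlib 3.10.9, numpy 2.4.6, Python 3.11.15 and, in R, statmod 1.5.0.

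Values per library are printed for members called in any comparison and for the 2 entries of highest mean in each family, and single others as examples. The members and the lists for amino acid response, taurine and creatine synthesis, glucose uptake and cell types were chosen with earlier results of these data known. Names were matched as written in the table, and 49 of the 81 member names are symbols in the RefSeq annotation of assembly NfurGRZ-RIMD1, where SLC7A6 and SLC7A6OS are neighbours. The alternatives were 3 scalings, 2 filters, added constants of 0.5 and 5, robust moderation, precision weights, the 2 ages alone, no fold limit, replicate blocks and the omission of each library. Single values of some entries that were part of the fit and the counts are not reported here. The chromatin data and other tissues were not analysed here.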

Additional observations from a re-analysis of the deposited data

How the results depend on the processing

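No call of a transporter entry changed direction under any alternative. Of 24 calls in adult versus young muscle 14 passed in every alternative in which the entry was tested, of 21 in old versus young 10, and of 3 in old versus adult 0. Of these, 8 and 5 were tested in all alternatives, the others being left out by a mean of at least 50. Old versus young gave 12 calls with no filter, where all 39396 entries were tested and adjusted over, and 10 with a mean of at least 50, where fewer members were tested. Old versus adult gave 0 calls with no filter, with the 2 ages alone and with replicate blocks (limma, with 15, 12 and 14 members at an unadjusted p under 0.05), and 1 with robust moderation and with precision weights. The F test gave 17 members with no filter. For the replicate blocks, robust moderation and precision weights the cause was not tested. Without a library in turn the counts were 18 to 25 in adult versus young, 12 to 23 in old versus young, 0 to 4 in old versus adult and 21 to 34 in the F test.

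With equal library totals the medians of all entries were -0.118, -0.298 and -0.169 in adult versus young, old versus young and old versus adult muscle, and the members, with medians of 0.001, -0.276 and -0.24, were called 11 higher and 13 lower, 5 higher and 19 lower, and 0 higher and 2 lower. Totals without the 20 most abundant entries gave medians of all entries of -0.111, -0.214 and -0.089. Replicate numbers did not pair the libraries: deviations of same-numbered libraries correlated at -0.079 to 0.106, those of other numbers at -0.105 to 0.116, and 2 of 9 libraries correlated best with their own number. The replicate block gave 24 and 19 calls against young. Depth limits the low carriers most: the shallowest library, old replicate 3, had 7.96 M estimated reads on genes, and entries under about 10 normalized counts rest on few reads.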
